A study of Mus musculus with 9 samples.

Results

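Triadin is made by 1 gene, Trdn, yet the Affymetrix Mouse Gene 1.0 ST array reads that gene in 19 separate pieces, and it reads Map4 in 2. A transcript cluster is a set of probes that is read as 1 value, for a gene or for a piece of it. These 21 are all of the 33323 clusters in the series whose annotation gives Trdn or Map4 alone, and no cluster names either gene together with another. Each was kept as its own row, and none held the same values as any other cluster. Both genes were chosen because earlier results of these data had shown their clusters to differ in the comparison of beating with non-beating samples. That comparison is therefore given here as a description. By the same test (limma, Benjamini-Hochberg adjusted p under 0.05), 2.82% of all clusters were called higher and 3.34% lower in beating samples, and each count of calls below has these shares as its background.

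The series compared 4 beating samples, 1 round cell pool and 4 non-beating samples of the stromal vascular fraction (SVF), the mixed cells left after fat is digested and the adipocytes are removed, from subcutaneous adipose tissue of C57BL6/J mice aged 10 weeks. The cells grew in IMDM with 10% FBS, L-glutamine, antibiotics and 2-mercaptoethanol, with no other treatment in any group. On day 28 beating colonies were picked by hand and combined (beating), with colonies of several dishes of 1 lot of SVF in a sample, and other cells of the dish were taken as non-beating. On day 14, 6 round cells were picked and combined as the round pool, which has no replicate and no error. The amount of RNA that these cells gave is not stated, and the authors raise a concern of noise in this pool. A hand-picked colony can hold other cells too, and in such bulk samples fewer cells of a type and less RNA per cell cannot be told apart. Nothing in the labels ties the samples of a group to separate animals, so each p-value measures only the spread between these samples, which may be technical.

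Triadin sits in the membrane of the sarcoplasmic reticulum, where it meets the T-tubule or surface membrane. There it binds calsequestrin, the calcium buffer of the store, and the ryanodine receptor, the channel through which calcium leaves it. Heart and skeletal muscle make triadins of different length from the same gene by alternative splicing, the short forms in the heart and the long ones in skeletal muscle. MAP4 is the main microtubule-associated protein of non-neuronal cells, and striated muscle makes a form of it that carries a large additional stretch of coding sequence.

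All values are log2 signals as deposited, and they include background, so a difference is not a ratio of transcript amounts where a cluster is dim. Array medians were 3.12 to 3.17 in beating samples, 3.54 in the round pool and 3.08 to 3.09 in non-beating samples. The striated muscle genes fixed as markers set the groups apart: 14 of 15 were called higher in beating samples (2.82% of all clusters), and their mean was 8.76 to 9.03 on the beating arrays, 8.96 in the round pool and 3.72 to 4.14 on the non-beating arrays. Of 10 cardiac-restricted genes, 2 were called higher and 8 were not called, among them Nkx2-5 and Gata4. The 2 were Myl4, by 5.00, and Myh6, by 0.41 at means of 2.77 against 2.36, below the array medians. The mean of the 10 was 4.09 to 4.28 on the beating arrays, 4.72 in the round pool and 3.50 to 3.62 on the non-beating arrays. The means of 8 fibroblast, 8 macrophage and 8 adipocyte genes were 7.59 to 8.04, 3.36 to 5.19 and 4.02 to 4.38 on the beating arrays, against 8.30 to 8.90, 5.13 to 6.64 and 4.84 to 5.18 on the non-beating arrays. In the round pool these means were 4.47, 3.64 and 3.73. The part that such differences in cell make-up have in the values below was not tested.

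Trdn (Entrez Gene 76757) spans chromosome 10 from 33083483 to 33476709 on GRCm38. Its clusters are numbered here from 1 (10362404) to 19 (10362462) in the order of their array identifiers. In the neighbourhood of Trdn, identifiers rose with position: of the 26 steps between successive genes of chromosome 10 within 15 annotated clusters on either side, all 26 went to a higher start. Whether clusters 1 to 19 follow the gene from one end to the other, and which exons each of them covers, is not given in the sources used here. Cluster 1 carries 5 transcript accessions, and each of the other 18 carries the same single RefSeq transcript, one of the 5.

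Most Trdn clusters were higher in beating samples, by amounts that differed widely within this 1 gene. Beating minus non-beating differences ran from 0.05 to 7.86 on the log2 scale with a median of 3.98, against a median of 0.0073 over all 33323 clusters. With limma and Benjamini-Hochberg adjustment over the whole array (adjusted p under 0.05), 16 of the 19 were called higher, none was called lower and 3 were not called; of all clusters 2.82% were called higher and 3.34% lower. Beating values lay above every non-beating value in 18 of the 19 and below every non-beating value in none, as in 5.98% and 8.24% of all clusters.

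**Figure D1:**
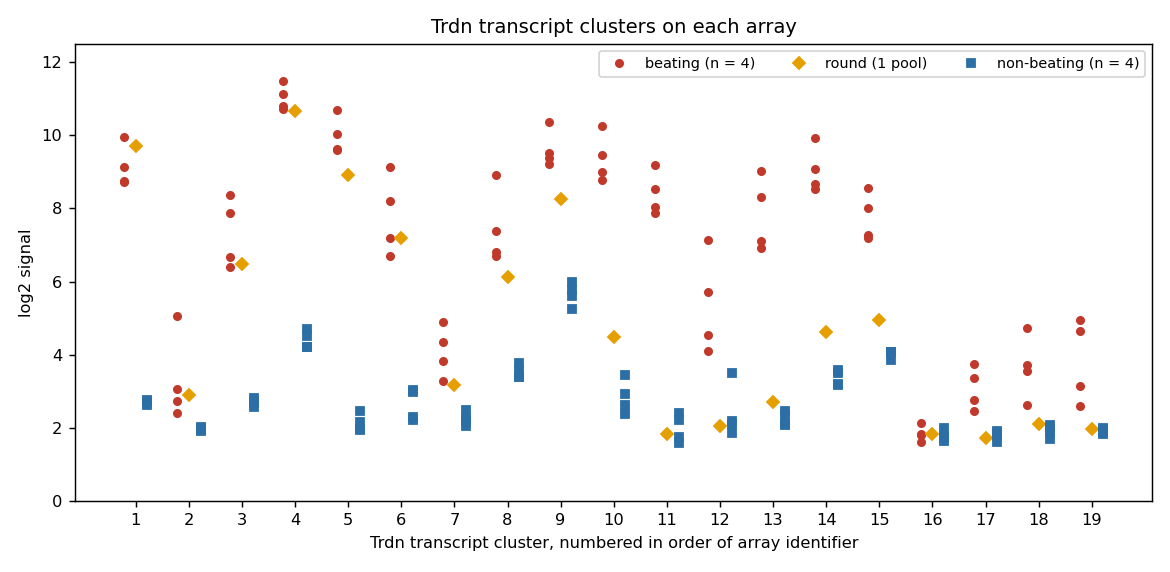
Log2 signal of the 19 Trdn clusters on every array, in order of array identifier along the x axis, with 4 beating arrays (circles), the round pool (diamonds) and 4 non-beating arrays (squares) from left to right at each cluster. The round pool lies near the beating arrays in clusters 1 to 9 and far below them in clusters 10 to 15.

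Cluster 5 (10362422) had the largest difference of the 19. It read 10.68, 10.04, 9.63 and 9.60 on the beating arrays and 8.93 in the round pool, against 2.15, 1.94, 1.97 and 2.47 on the non-beating arrays. Its difference was 7.86 (limma standard error 0.25, n = 4 each), and its non-beating values all lay below their array medians. Cluster 4 (10362420) was the brightest, at 11.50, 11.13, 10.79 and 10.71 on the beating arrays, 10.66 in the round pool and 4.71, 4.50, 4.22 and 4.20 on the non-beating arrays. Here every non-beating value stood above its array median, and the difference was 6.62 (standard error 0.19). Cluster 1, the one with 5 accessions, read 9.96, 9.14, 8.74 and 8.76 in beating samples and 9.70 in the round pool, against 2.77, 2.71, 2.74 and 2.61 in non-beating samples. The round value of cluster 1 fell inside the beating range, which was so for 3 other Trdn clusters among the first 9 (2, 3 and 6).

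The clusters were divided at a difference of 3, a cut set after the values were seen and without a test. In 12 of the 19 the difference was 3.75 or more (large), and in the other 7 (clusters 2, 7, 12 and 16 to 19) it was 2.97 or less (small). The differences do not fall into clear groups, since steps such as 1.91 to 2.97 and 6.62 to 7.86 are wider than the step at the cut. Cluster 12 passed the cut in some fits, at 3.24 without beating replicate 4. Of all clusters, 0.33% were called higher with a difference of at least 3. The 12 had beating means of 7.33 to 11.03 and the 7 had beating means of 1.84 to 5.37, so the groups did not overlap in beating samples. Because the cut was made on the difference, this separation largely follows from it and is not a further result. In non-beating samples they did overlap, with means of 1.99 to 5.65 for the 12 and 1.79 to 2.41 for the 7. Signals of different clusters come from different probes, so their levels do not rank parts of the transcript.

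Cluster 16 (10362454) stood at the low end. It read 1.80, 2.13, 1.60 and 1.83 on the beating arrays, 1.81 in the round pool and 2.00, 1.77, 1.76 and 1.64 on the non-beating arrays. The groups overlapped, every value was below its array median, and the difference was 0.05 (standard error 0.12). Clusters 2 (10362416) and 19 (10362462) were the others not called. In both, the beating arrays lay above all non-beating arrays but were far apart from each other. Cluster 2 read 5.05, 3.06, 2.72 and 2.41 in beating samples and 2.89 in the round pool, against 1.92 to 2.01 in non-beating samples. Cluster 19 read 4.95, 4.63, 2.58 and 3.13 in beating samples and 1.95 in the round pool, against 1.83 to 1.99 in non-beating samples. The call of cluster 2 was gained without beating replicate 1, which alone stood above 4 (difference 0.76, limma adjusted p = 0.0308), and that of cluster 19 without beating replicate 3 (difference 2.32, limma adjusted p = 0.0251). The calls of clusters 12, 17 and 18 were the least stable: each was lost without any 1 of the 4 non-beating arrays, where limma's adjusted p reached 0.111, 0.0767 and 0.105 at differences of 2.89, 1.32 and 1.68. Cluster 12 also lost its call without beating replicate 2 or 4 (differences 2.85 and 3.24), cluster 18 without the same arrays (1.73 and 1.79) and cluster 17 without beating replicate 1 (1.21).

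The 4 beating samples did not carry equal Trdn signal. Beating replicate 1 was the highest of the 4 in 17 of the 19 clusters and replicate 2 in the other 2, while the lowest was replicate 3 in 10 and replicate 4 in 9. Over all clusters, replicate 1 was the highest beating array in 35.7%. Among the 98 other clusters called higher with a difference of at least 3, it was the highest in 72. Averaged over the 12 Trdn clusters with large differences, beating replicates 1 to 4 read 9.66, 8.89, 8.23 and 8.16. The striated muscle markers averaged 9.03, 8.97, 8.76 and 8.96 on the same arrays, a narrower range. Within the 12, the highest and lowest beating array were 0.78 to 2.46 apart, and the smallest of their differences from non-beating samples exceeded that.

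The median SD of a Trdn cluster was 0.65 over the beating and 0.18 over the non-beating arrays, against medians of 0.16 and 0.12 over all clusters. Between beating samples, then, Trdn clusters varied more than the typical cluster of the array. Cluster 12 (10362440) had the largest SD in both groups, at 7.13, 5.72, 4.09 and 4.54 in beating samples and 2.09, 3.48, 2.18 and 1.87 in non-beating samples, with 2.05 in the round pool. Its lowest beating value was still above its highest non-beating value.

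In the round pool the Trdn clusters parted in a way that they did not in beating samples. Clusters 1 to 9 read 0.92 to 6.99 above the non-beating mean, with a median of 3.79, and all 9 were above every non-beating array. The smallest of these, 0.92 in both cluster 2 and cluster 7, were 0.47 in both after median centring of the 9 arrays, and 0.48 and 0.42 after quantile normalization. Clusters 10 to 19 read from -0.35 to 1.64 relative to the non-beating mean, with a median of 0.11, and 5 of the 10 lay within the range of the non-beating arrays. Over all clusters, round minus non-beating had a median of 0.22, and 54.3% of clusters were above every non-beating array. The division after cluster 9 was made after the values were seen, from a single pool, and carries no test.

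The break came between neighbouring identifiers. Cluster 9 (10362432) read 8.27 in the round pool, against 10.37, 9.53, 9.39 and 9.23 in beating samples and 5.25, 5.76, 5.59 and 5.99 in non-beating samples. Cluster 10 (10362434) read 4.49 in the round pool, against 10.25, 9.46, 8.77 and 8.99 in beating samples and 2.62, 3.44, 2.38 and 2.94 in non-beating samples. The round pool was thus 1.36 below the beating mean in cluster 9 and 4.88 below it in cluster 10, while beating samples were above non-beating samples by 3.98 and 6.52.

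Cluster 11 (10362436) showed the widest gap. It read 1.82 in the round pool, against 9.18, 8.54, 8.05 and 7.88 in beating samples, and its non-beating values were 2.20, 2.41, 1.58 and 1.76. The round pool was inside the non-beating range there, and its difference from the beating mean was -6.59. This was the lowest of all 110 clusters of the array that were called higher in beating samples by at least 3, over which the median of round minus beating was -0.82. Clusters 13, 10 and 14 also stood among the 10 lowest of these 110, with -5.14, -4.88 and -4.44. In 105 of the 110 the round pool was above every non-beating array, and cluster 11 was the 1 Trdn cluster among the other 5.

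**Figure D2:**
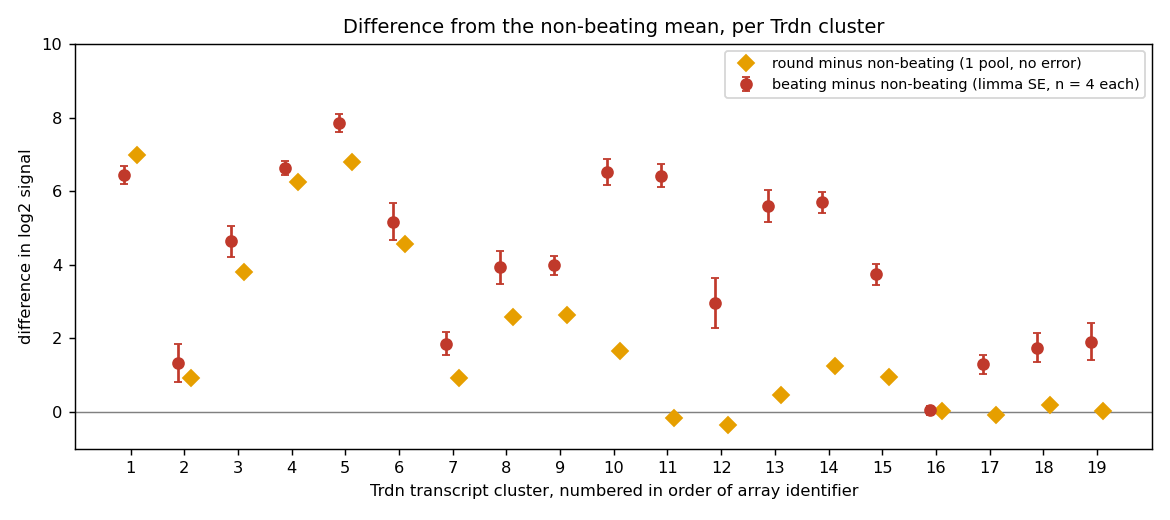
Difference in log2 signal from the non-beating mean for each Trdn cluster, in order of array identifier: beating samples with the limma standard error (circles, n = 4 each) and the round pool (diamonds, no error). From cluster 10 on, the round pool lies between -0.35 and 1.64, while beating samples reach 6.52.

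Relative to the beating mean, the round pool lay between -1.36 and 0.55 in clusters 1 to 9 (median -0.84), and between -6.59 and -0.03 in clusters 10 to 19 (median -3.06). It was below every beating array in 5 of the first 9 and 9 of the last 10, as it was in 27.9% of all clusters. Both stretches held clusters called higher in beating samples, 8 of 9 and 8 of 10. Clusters 16 to 19 averaged 1.84, 3.08, 3.66 and 3.83 in beating samples, and round minus beating was -0.03, -1.37, -1.56 and -1.87 there. The round pool read above beating samples in dim clusters of the array and below them in bright ones: over 4 equal groups of clusters from dimmest to brightest, round minus beating had medians of 0.29, 0.54, 0.18 and -1.15. The part that this dependence on level has in the pattern was not tested. Centring each of the 9 arrays on its median, or quantile normalization, left the break between clusters 9 and 10 in place, with round minus beating of -1.75 and -0.65 in cluster 9 and of -5.27 and -4.46 in cluster 10.

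Spread among the clusters of 1 gene was not confined to Trdn in the round pool. Of 78 genes with 5 or more clusters of 1 symbol, 4932438A13Rik, Hmcn1 and Adamts3, named after their values were seen, had wider ranges of round minus beating than Trdn. The range was 7.14 for Trdn, against 8.27, 7.83 and 7.67 for these genes. In the comparison of beating with non-beating samples, by which Trdn was chosen, it had the widest range of the 78, at 7.81. That rank is a description and not a further result. The next were Myo18b, an unconventional myosin of striated muscle, with 3.36 over 20 clusters, Ccdc141 with 2.81, Chd7, a chromatin remodeller, with 2.13, Ppp1r12b, a myosin phosphatase subunit, with 1.78, and Taf1d with 1.65. The median range was 0.33. Of the 14 genes with any cluster called higher, 13 also had clusters that were not, so a mixed call was common among them.

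**Figure D3:**
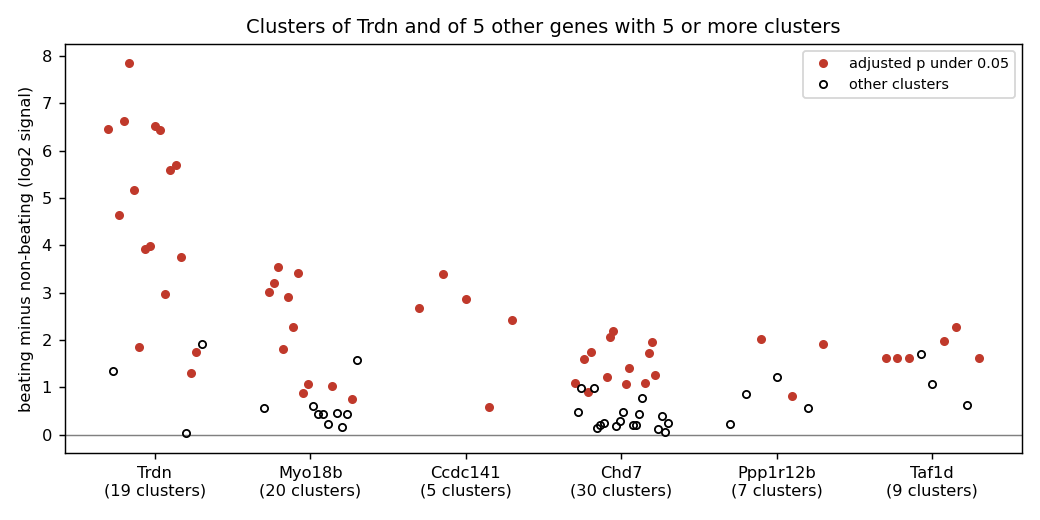
Beating minus non-beating difference (log2 signal) of every cluster of Trdn and of the 5 other genes with the widest range among genes with 5 or more clusters; filled points have a limma adjusted p under 0.05. Trdn clusters reach from 0.05 to 7.86 and those of Myo18b from 0.17 to 3.54.

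Myo18b is the nearest case, with 11 of 20 clusters called higher (2.82% of all clusters). Its round values also rose and fell between neighbouring identifiers. In 3 of its clusters the round pool stood at 9.49, 9.28 and 9.71, above the beating means of 5.92, 6.05 and 6.65, and the non-beating means were 2.91, 2.86 and 3.12. In 3 others, next to each other in identifier, it was at 4.26, 3.97 and 5.08, against beating means of 6.43, 5.00 and 6.27. These round values were 0.73, 1.24 and 2.22 above the non-beating means. The cluster after them read 7.77 in the round pool, above its beating mean of 6.73. No Trdn cluster was further above its beating mean in the round pool than cluster 1, by 0.55.

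The array holds 1 more cluster whose identifier falls between those of Trdn, and the annotation gives it no gene. It averaged 1.77 ± 0.068 on the beating arrays and 1.75 ± 0.094 on the non-beating arrays, as mean and SD of 4, and read 1.88 in the round pool, with no difference beyond the spread (limma adjusted p = 0.905). It was named after its values were seen and is not counted as Trdn.

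The genes whose profile over the 9 arrays was most like that of Trdn cluster 4 were all genes of muscle. Likeness was the root mean square difference after centring each cluster on its own mean. The measure includes the comparison by which Trdn was chosen, so such neighbours largely follow from it and are not a further result. Myoz2, a Z-disc protein that binds calcineurin, differed by 0.21, Casq1, the calsequestrin of fast skeletal muscle, by 0.29, Myl1, a myosin light chain, by 0.39, Actc1, cardiac alpha-actin, by 0.43 and Cavin4, a muscle protein of caveolae, by 0.43 on the log2 scale. Their round values, which entered the measure, ran from 8.75 for Myl1 to 11.68 for Actc1.

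Partners of triadin and other genes of the triad, where the T-tubule meets the reticulum, were read mostly by 1 cluster each. Of 30 measured genes of this list, 17 were called higher in beating samples, none was called lower and 13 were not called by limma over all clusters, with 2.82% of all clusters called higher and 3.34% lower. The median difference was 0.91, against 0.0073 over all clusters. Both calsequestrins were among the 17. Casq1 read 9.92 ± 0.26 against 3.60 ± 0.28 (SD, n = 4 each), a difference of 6.32 (standard error 0.17, limma adjusted p = 8.16e-07). Casq2, the calsequestrin of heart and slow muscle, read 9.55 ± 0.17 against 3.19 ± 0.17. Its round value of 7.94 was below, and that of Casq1, 10.14, above the beating mean.

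Of the calcium release channels, Ryr1, the ryanodine receptor of skeletal muscle, was higher by 2.48, at 5.49 ± 0.12 against 3.01 ± 0.084 (limma adjusted p = 1.26e-06). Ryr2, the receptor of the heart, read 2.46 ± 0.11 in beating and 2.45 ± 0.0083 in non-beating samples (limma adjusted p = 0.948), below the array medians in both. Ryr3, another form of the receptor, was higher by 0.67. Asph, whose gene also makes junctin, a relative of triadin in the same complex, read 7.27 ± 0.22 and 7.15 ± 0.11 (limma adjusted p = 0.615). Its 1 cluster cannot tell junctin from the other products of the gene.

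Hrc, a calcium-binding protein of the reticulum that binds triadin, was higher by 5.34. Cacna1s, the voltage sensor of the skeletal T-tubule, was higher by 3.35, with its partners Cacnb1 by 1.92, Cacna2d1 by 1.36 and Stac3 by 1.03. The junctophilins, which tie the membranes together, were split: Jph1 was higher by 2.44 and Jph2 by 0.83, and Jph3 and Jph4, known from the brain, did not pass the test. Bin1, which shapes the T-tubule, was higher by 2.65, and Sypl2, mitsugumin 29 of the triad, by 1.05. Srl, sarcalumenin, was higher by 4.26. Of the calcium pumps Atp2a1 was higher by 3.77 and Atp2a2 by 0.98. Of their small inhibitors Mrln, myoregulin, was higher by 4.31, while Sln and Pln differed by 0.58 and 0.51 and did not pass the test. Jsrp1, Fkbp1a, Fkbp1b, Tmem38b, Cacna1c, Mtm1 and S100a1 did not pass it either.

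**Figure D4:**
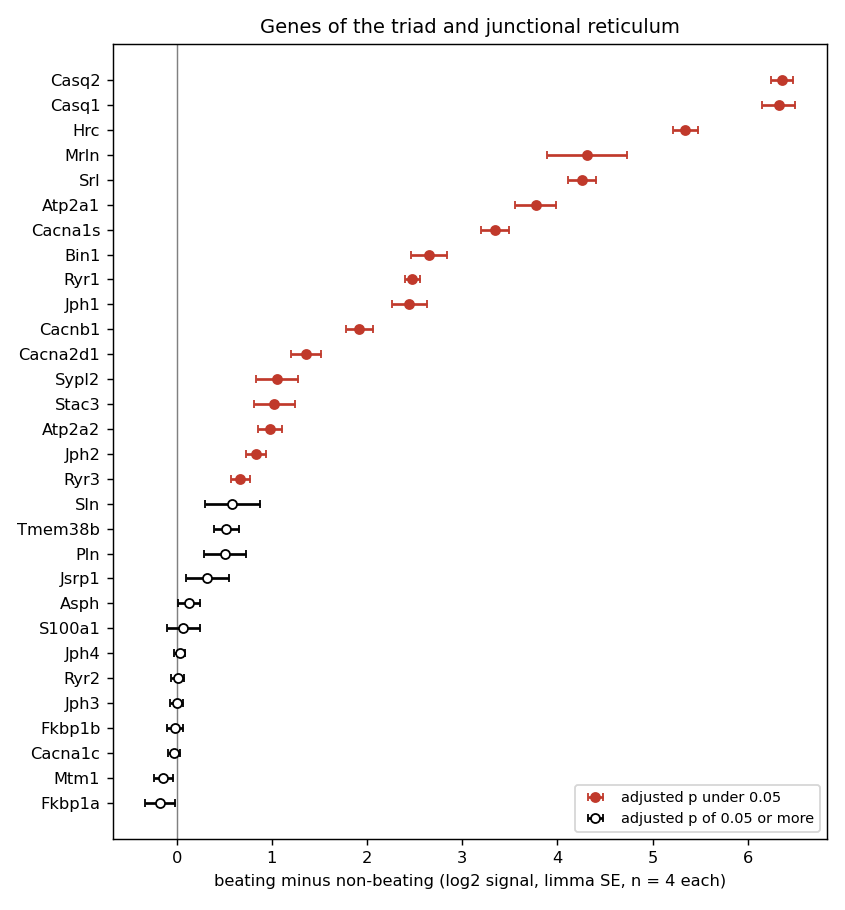
Beating minus non-beating difference (log2 signal, limma standard error, n = 4 each) for the 30 measured genes of the triad and junctional reticulum, largest at the top; filled points have a limma adjusted p under 0.05. Casq2, Casq1 and Hrc have the largest differences, and 17 of 30 pass the test.

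Map4 (Entrez Gene 17758) spans chromosome 9 from 109929841 to 110083954 on GRCm38, and its 2 clusters gave different accounts of it. The annotation lists 13 transcript accessions for cluster 1 (10589438) and 1 other accession for cluster 2 (10589462), with none in common. Cluster 1 read 8.17, 8.12, 8.51 and 8.42 on the beating arrays and 6.35 in the round pool, against 8.09, 7.82, 8.10 and 7.99 on the non-beating arrays. The beating and non-beating values did not overlap, although the lowest beating and the highest non-beating value nearly met, and the difference of 0.30 (standard error 0.11) was not called. Cluster 2 read 8.57, 8.26, 8.12 and 8.03 on the beating arrays and 7.72 in the round pool, against 3.79, 3.59, 3.68 and 3.91 on the non-beating arrays. Its difference was 4.50 (standard error 0.13) and was called higher; every non-beating value was above its array median.

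**Figure D5:**
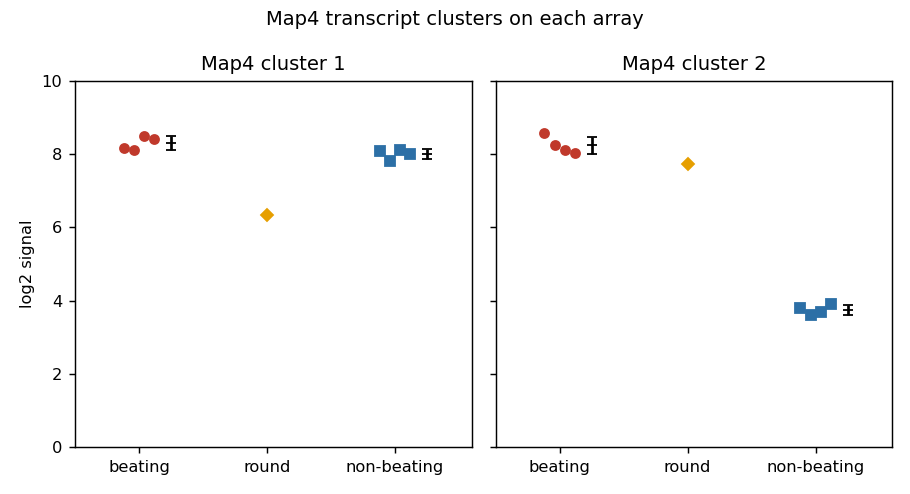
Log2 signal of the 2 Map4 clusters in beating (n = 4), round (1 pool) and non-beating (n = 4) samples; black bars give the mean with the SD over 4 arrays. Cluster 1 is near 8 in beating and non-beating samples and at 6.35 in the round pool, and cluster 2 is at 8.03 or more in beating samples, 7.72 in the round pool and 3.91 or less in non-beating samples.

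Map4 was also chosen by the comparison of beating with non-beating samples, so its rank here is a description. The gap between the differences of its 2 clusters was 4.20. It was the widest of the 777 genes that have exactly 2 clusters of 1 symbol, whose median gap was 0.13. Of these genes 38 had a cluster called higher, and in 19 of them the other cluster was not called higher. Tmod1, a capping protein of thin filaments, followed with 3.02 and Klhl31 with 2.28; both were named after their values were seen.

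Relative to the non-beating mean, the round pool moved in opposite directions in the 2 Map4 clusters, while in both it was below every beating array. In cluster 1 it was below all 8 other arrays, 1.95 below the beating mean and 1.65 below the non-beating mean. After quantile normalization of the 9 arrays these differences were -0.87 and -0.51, and after median centring -2.35 and -2.10. In cluster 2 it was 3.98 above the non-beating mean and 0.52 below the beating mean, which ranked 61 from the lowest among the 110 strong rises. The difference of cluster 2 from the beating mean turned to 0.38 after quantile normalization and stood at -0.92 after median centring. The brightest of the 4 equal groups of clusters had a median round minus non-beating of -1.29.

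The 2 Map4 clusters had different nearest profiles by the same measure. This largely follows from the size of their own differences and is not a further result. Eno3, the muscle enolase, was nearest to cluster 2, with a root mean square difference of 0.16, followed by Apobec2 (0.25), a muscle deaminase, Igf2 (0.32), a growth factor, Abra (0.37), an actin-binding activator of muscle transcription, and Myl4 (0.38), a myosin light chain of atrium and embryo. Nearest to cluster 1 were Smc5 (0.11), Inpp5a (0.11), Kif1b (0.11), Smg1 (0.11) and Nemf (0.12), none of them a contractile gene.

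The RefSeq promoter table used here (GRCm38.p6) lists a pair of transcription starts for Map4, far apart in the gene. The bases before each Map4 start are shown because the clusters moved so differently, but nothing in the files ties either cluster to either start. Both are on the plus strand, 5′ to 3′, the 250 bases that end just before the start. Capitals mark E-boxes, CANNTG, the pattern bound by the myogenic factors. A match to this pattern on either strand is also a match on the other, though its middle bases can differ.
Map4 upstream start, chr9:109931524-109931773: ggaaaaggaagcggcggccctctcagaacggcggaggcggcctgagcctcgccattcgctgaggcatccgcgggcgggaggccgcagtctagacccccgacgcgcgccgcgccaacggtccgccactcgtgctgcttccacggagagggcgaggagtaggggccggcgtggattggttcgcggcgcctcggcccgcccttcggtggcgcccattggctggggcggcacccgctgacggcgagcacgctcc
Map4 internal start, chr9:110051771-110052020: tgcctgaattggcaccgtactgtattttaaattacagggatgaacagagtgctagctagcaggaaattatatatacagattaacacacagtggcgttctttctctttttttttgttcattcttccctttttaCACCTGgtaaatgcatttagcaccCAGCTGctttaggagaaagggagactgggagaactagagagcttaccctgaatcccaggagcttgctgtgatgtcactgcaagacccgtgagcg

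The upstream window was 74.0% G and C and held no E-box. The internal window was 43.6% G and C and held 2, CACCTG and CAGCTG, and neither window held a MEF2 site. Among 32851 windows of the same length in the table, the median G and C content was 52.4%, 66.2% held a CANNTG, 13% held CAGCTG and 0.508% a MEF2 site. An E-box is therefore the common case, and the letters alone say nothing of whether a factor binds.

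Other microtubule genes moved little in comparison. Of 28 measured genes for microtubule-associated proteins, their kinases and tubulins, 5 were called higher in beating samples, 1 was called lower and 22 were not called by limma over all clusters, with 2.82% of all clusters called higher and 3.34% lower. The share called lower was close to that background, and the median difference was 0.065. Tuba4a, an alpha-tubulin of muscle and other differentiated cells, was higher by 1.70, at 7.09 ± 0.40 against 5.39 ± 0.21 (SD, n = 4 each, limma adjusted p = 0.00293), and Tubb6, a beta-tubulin, by 0.93. Mapre3, an end-binding protein of microtubules, was higher by 0.71 (limma adjusted p = 0.0393) and Mark3, a kinase of microtubule-associated proteins, by 0.35. Tuba1a was higher by 0.24. Mapre2, another end-binding protein, was lower by 1.43 on the log2 scale (limma adjusted p = 0.0196). The close relatives of Map4, Map2 and Mapt, read 2.53 ± 0.10 and 2.94 ± 0.076 in beating samples, against 2.63 ± 0.14 and 2.81 ± 0.077 in non-beating samples, below the array medians. Tubulin genes are alike in sequence, and whether probes of 1 reach another was not tested. The calls of this list depended on single arrays, with 2 or 3 higher without any 1 of the 8. It was 2 higher after median centring, with the methods' two-sample test and with the replicate block. The lower call was lost with the methods' test and without beating replicate 2 or non-beating replicate 1, 2 or 3.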

How the data were processed

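RNA of 9 samples was amplified and labelled (Ovation Pico RNA WTA System) and hybridised to Affymetrix Mouse Gene 1.0 ST arrays. The deposited values are log2 signals per transcript cluster; by the methods, the authors used BRB-ArrayTools and scaled (log2), normalised and mean-centred the raw data, but the steps behind the deposited table are not given in the sources used here. Values were used as deposited, and are not centred per cluster. The number of arrays limits the precision.

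Gene names came from the platform annotation and were brought to RefSeq symbols (GRCm38.p6) through the gene number; 21789 of 33323 clusters carry 1 symbol. Beating was compared with non-beating with limma 3.58.1 under R 4.3.3. Its moderated two-sided test was run on every cluster, with a threshold of 0.05 after Benjamini-Hochberg adjustment, and was tested on simulated data. A listed gene was represented by its cluster with the highest mean over 8 arrays. Members, lists and tests were chosen with earlier results of these data known. Named were all Trdn and Map4 clusters, listed genes that passed or bind triadin, and the 5 genes most like a cluster. The 5 genes of 5 or more clusters with the widest range were named too. So were the cardiac-restricted markers that passed, and some listed genes and markers that did not pass the test. Other named genes are marked.

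By the methods, non-beating cells came from the dishes that gave the beating colonies, but the labels do not say which samples share dishes. Replicate numbers are shared between the groups, but same-numbered arrays did not deviate together (correlations of deviations from -0.012 to 0.028). Whether these numbers mark the pairs is therefore not known, and the main test used no pairing. Alternatives were median centring, quantile normalization, leaving out clusters that were above their array's median on fewer than 4 of 8 arrays, an intensity trend, the methods' two-sample test with adjustment, a replicate block, any cluster of a listed gene, and each array left out in turn. For the round pool, median centring and quantile normalization of 9 arrays were tried.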

Additional observations from a re-analysis of the deposited data

Results flagged for a closer look

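Of the 42 groups of 4 arrays tested, 1 held an array far from the others: in Trdn cluster 15 (10362450) non-beating replicate 3 read 3.84, while the other 3 non-beating arrays lay within 4.08 to 4.08 at this precision. Chance flags about 1 in 20 such groups. The beating arrays of that cluster averaged 7.76.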

How the results depend on the processing

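The count of Trdn clusters called higher was 16, lay between 12 (the methods' two-sample test) and 16 under the other settings of the fit, and between 13 and 17 without 1 array at a time; with clusters dim on most arrays left out it was 14, a number that the filter largely fixed, since many Trdn clusters passed it through the beating arrays alone. Map4 had 1 cluster called higher under every alternative. With the replicate block 14 Trdn clusters and 1 Map4 cluster were called. Without 1 array, Map4 stayed at 1. The difference of Trdn cluster 16 turned to -0.0096 after median centring, to -0.050 without beating replicate 2 and to -0.001 without non-beating replicate 4, and lay between -0.050 and 0.127 without 1 array at a time. The calls of clusters 7, 12, 17 and 18 were lost with the methods' test, and those of 12 and 17 with the block. Of the triad genes 15 to 18 were higher under all alternatives and none was lower. Over all clusters, 940 were higher and 1114 lower, with 491 and 375 by the methods' test, 645 lower with the block, and, without 1 array at a time, 569 to 914 higher and 438 to 1023 lower. After median centring 837 were higher and 1617 lower. Of the microtubule genes (5 higher, 1 lower), 2 were higher after median centring, with the methods' test and with the block, and 2 to 3 without 1 array; 3 were lower after median centring and with dim clusters left out, 0 with the methods' test and 0 to 2 without 1 array. In the round pool, relative to the non-beating mean, Trdn clusters 16, 18 and 19 turned from 0.02, 0.19 and 0.03 to -0.43, -0.26 and -0.42 after median centring, and relative to the beating mean clusters 3 and 6 turned to 0.26 and 0.41 after quantile normalization. The cause of these changes was not tested. Median centring moved the median of round minus non-beating over all clusters to -0.23 and quantile normalization to 0.019.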
